A study of Mus musculus with 4 samples.

Results

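The 8 genes described here, Fabp3, Fabp4, Fabp5, Cd36, Lpl, Slc27a1, Acsl1 and Acsl4, carry out the capture, entry, binding and activation of fatty acids, and they were chosen by symbol from the 32285 genes counted in each library. They were read in 4 single-cell RNA sequencing libraries (10x Genomics, 3′ ends) of cultured mouse cells, each condition having 1 library. In iWAT_DFAT and eWAT_DFAT the cells were de-differentiated fat (DFAT) cells, which form when isolated adipocytes are kept in ceiling culture, from inguinal (iWAT) and epididymal (eWAT) white fat. In iWAT_ASPC and eWAT_ASPC they were stromal vascular cells of those depots after primary culture, the source of adipose stem and progenitor cells (ASPCs). The animals were male C57BL/6J mice on chow diet, whose age and number are not given in the sources used here. The labels name no transgene or mutant allele, the cells were lifted with trypsin and sorted with the dye 7-AAD, and whether differentiation medium had been added is not stated. Cells were barcodes with 5000 to 75000 unique molecular identifiers (UMIs, 1 per captured RNA molecule), 200 to 7500 genes and under 10% mitochondrial UMIs. Of 28262 such cells, 7629 were from iWAT_DFAT, 6464 from eWAT_DFAT, 7424 from iWAT_ASPC and 6745 from eWAT_ASPC. Endothelial cells, with a UMI in 3 or more of Pecam1, Cdh5, Emcn, Cd93 and Egfl7, numbered 22, 148, 57 and 147 in the same order, 374 in all. Close to that limit, 3, 3, 2 and 16 of these had exactly 3 markers, and 56, 81, 50 and 116 cells just outside had 2.

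Fatty acids reach a cell mostly as triglyceride in lipoproteins or bound to albumin. LPL frees them from triglyceride at the capillary wall, CD36 and the transporter FATP1 (the product of Slc27a1) bring them across membranes, long-chain acyl-CoA synthetases such as ACSL1 and ACSL4 trap them by coupling them to coenzyme A, and the fatty acid-binding proteins (FABPs) carry them through the cytosol. In fat tissue FABP4 and CD36 are abundant in adipocytes, in capillary endothelium and in macrophages, and several genes of the pathway are targets of PPARγ, the transcription factor that drives adipocyte formation.

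Total counts ranged from 211396227 to 242282812 UMIs per library, and the median non-endothelial cell held between 22123 and 27766 UMIs. Between 84.0% and 97.2% of cells in a library had UMIs of 3 or more of the stromal genes Pdgfra, Pdgfrb, Col1a1, Dcn and Lum. Cells with 3 or more adipocyte markers (of Adipoq, Plin1, Cidec, Car3, Retn and Lep) numbered 34 in iWAT_DFAT, 188 in eWAT_DFAT, 2 in iWAT_ASPC and 2 in eWAT_ASPC, and Lep had no UMI in the non-endothelial cells of any library. Mesothelial-marked cells numbered 492 in eWAT_ASPC against 58, 0 and 1 in eWAT_DFAT, iWAT_DFAT and iWAT_ASPC, and glial-marked cells 133 in iWAT_ASPC against 17 in iWAT_DFAT. Any pair of libraries shared 13 to 20 cell barcodes, at most 0.297% of the smaller library. Levels are UMIs of a gene per 1000000 UMIs summed over cells (CPM), with exact 95% Poisson intervals, and ratios are log2 ratios of CPM with exact 95% conditional binomial intervals. All intervals cover counting error only. No condition was replicated, so the ratios compare these libraries without an error between cultures, and fewer cells of a kind cannot be told apart from less RNA per cell in a summed level. The file of iWAT_ASPC names another version of the counting software than the others, and its part in the ratios was not tested. A ratio is counted from 2-fold where the higher group reached 5 CPM, and members' counts stand beside the percentage of all such genes that reached 2-fold.

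**Figure D1:**
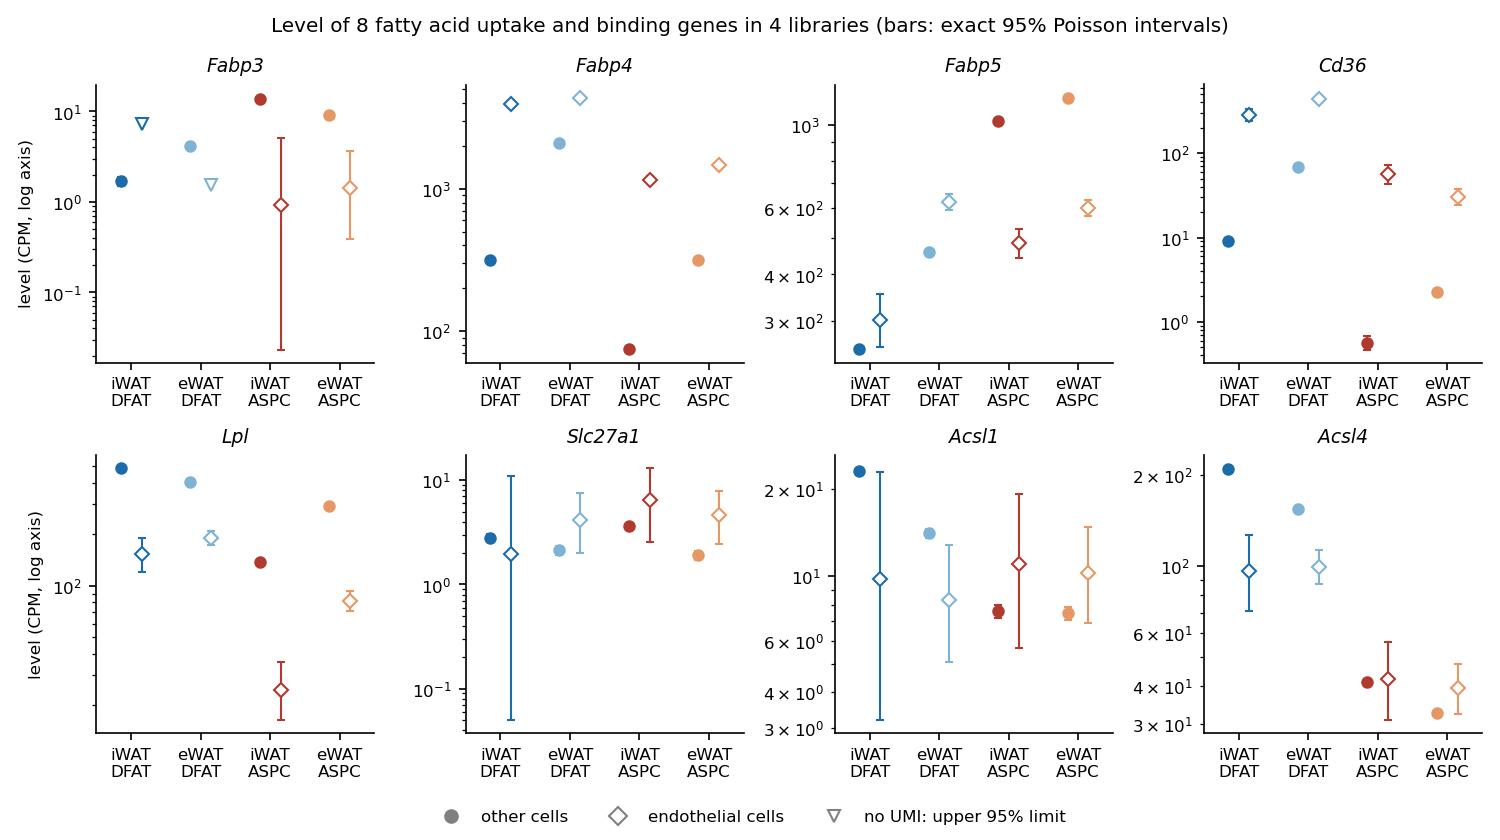
Level of each of the 8 genes in CPM (log axis) in the 4 libraries, in non-endothelial cells (filled circles) and endothelial cells (open diamonds); bars are exact 95% Poisson intervals and triangles are upper limits where no UMI was found. Fabp4 and Cd36 stood higher in endothelial cells than in other cells in all 4 libraries, and Lpl stood lower.

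DFAT cells and cultured stromal cells of the same depot differed in most of these genes. Among non-endothelial cells of iWAT, 7 of the 8 members were at 5 or more CPM and all 7 differed by 2-fold or more between DFAT cells and ASPCs, against 15.2% of the 10420 genes measured. 5 of them (Cd36, Acsl4, Fabp4, Lpl and Acsl1) were higher in DFAT cells and 2 (Fabp3 and Fabp5) were lower. In eWAT 5 of the 7 differed by 2-fold, against 13.5% of 10266 genes, with Cd36, Fabp4 and Acsl4 higher in DFAT cells and Fabp5 and Fabp3 lower. The median log2 ratio of the members was 1.83 in iWAT and 0.92 in eWAT, and that of all genes measured was 0.09 and 0.07.

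Cd36, the membrane receptor for long-chain fatty acids, had the largest ratio. Its level in non-endothelial cells was 9.15 CPM (8.71 to 9.59) in iWAT_DFAT, 69.5 CPM (68.3 to 70.7) in eWAT_DFAT, 0.565 CPM (0.465 to 0.680) in iWAT_ASPC and 2.24 CPM (2.03 to 2.46) in eWAT_ASPC. Both DFAT libraries were above both ASPC libraries, by a log2 ratio of 4.02 (3.74 to 4.31) in iWAT and 4.96 (4.82 to 5.10) in eWAT. By this ratio Cd36 was 91st of 10420 genes in iWAT and 44th of 10266 in eWAT.

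Fabp4, the adipocyte fatty acid-binding protein also known as aP2, was at 317 CPM (314 to 319) in iWAT_DFAT, 2103 CPM (2096 to 2110) in eWAT_DFAT, 75.1 CPM (73.9 to 76.3) in iWAT_ASPC and 317 CPM (314 to 319) in eWAT_ASPC. The order of the summed levels thus ran from eWAT_DFAT down to iWAT_ASPC, and those of the 2 libraries in the middle were equal within counting error. Their median cells differed, at 51.4 CPM in iWAT_DFAT and 157 CPM in eWAT_ASPC. The log2 ratio of DFAT cells to ASPCs was 2.08 (2.05 to 2.10) in iWAT and 2.73 (2.72 to 2.74) in eWAT.

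Acsl4, the synthetase that prefers arachidonic acid, was the member with the most even difference in the 2 depots. It stood at 210 CPM (208 to 212) in iWAT_DFAT and 155 CPM (154 to 157) in eWAT_DFAT, against 41.3 CPM (40.5 to 42.3) in iWAT_ASPC and 32.6 CPM (31.8 to 33.4) in eWAT_ASPC. These are log2 ratios of 2.34 (2.31 to 2.38) and 2.25 (2.21 to 2.29), or 5.08-fold and 4.77-fold. Acsl1, the main synthetase of mature adipocytes, was at 23.0 CPM (22.3 to 23.7), 14.1 CPM (13.6 to 14.6), 7.58 CPM (7.2 to 7.97) and 7.45 CPM (7.07 to 7.85) in iWAT_DFAT, eWAT_DFAT, iWAT_ASPC and eWAT_ASPC. Its ratio passed 2-fold in iWAT (log2 1.60, 1.52 to 1.69) and not in eWAT (0.92, 0.83 to 1.01). In eWAT the ratio was 1.29 with equal weight per cell. It was 0.13 without cells of another marked class and 0.01 in cells without any adipocyte marker UMI. The intervals of the 2 ASPC libraries overlapped.

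Lpl, which encodes the lipase secreted by adipocytes and their precursors, was at 488 CPM (484 to 491) in iWAT_DFAT, 402 CPM (399 to 405) in eWAT_DFAT, 137 CPM (135 to 139) in iWAT_ASPC and 293 CPM (291 to 296) in eWAT_ASPC. iWAT_ASPC was the low library, and the log2 ratio of DFAT cells to ASPCs was 1.83 (1.81 to 1.85) in iWAT but 0.45 (0.44 to 0.47) in eWAT. Slc27a1 was low in the non-endothelial cells of every library, at 2.79 CPM (2.55 to 3.04), 2.12 CPM (1.91 to 2.34), 3.60 CPM (3.34 to 3.88) and 1.90 CPM (1.71 to 2.10) in the same order, under the level at which ratios between libraries were counted.

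Fabp5 and Fabp3 ran the opposite way to Fabp4. Fabp5, the epidermal-type binding protein, was at 254 CPM (252 to 257) in iWAT_DFAT, 459 CPM (456 to 462) in eWAT_DFAT, 1025 CPM (1020 to 1029) in iWAT_ASPC and 1182 CPM (1177 to 1186) in eWAT_ASPC. Both ASPC libraries were above both DFAT libraries, with log2 ratios of DFAT cells to ASPCs of -2.01 (-2.03 to -2.00) in iWAT and -1.37 (-1.38 to -1.35) in eWAT. Fabp3, the heart and muscle type, was at 1.70 CPM (1.52 to 1.90), 4.17 CPM (3.87 to 4.47), 13.9 CPM (13.3 to 14.4) and 9.14 CPM (8.72 to 9.58), with log2 ratios of -3.02 (-3.20 to -2.85) and -1.13 (-1.26 to -1.01). In eWAT the Fabp3 ratio was under 2-fold, at -0.94, without cells of another marked class. Fabp5 and Fabp4 are neighbours on chromosome 3 of mm10, at chr3:10012548-10016607 on the plus strand and chr3:10204088-10208576 on the minus strand, 187480 bases apart with 4 genes of the files between them. The neighbours therefore differed between DFAT cells and ASPCs in opposite directions in both depots.

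**Figure D2:**
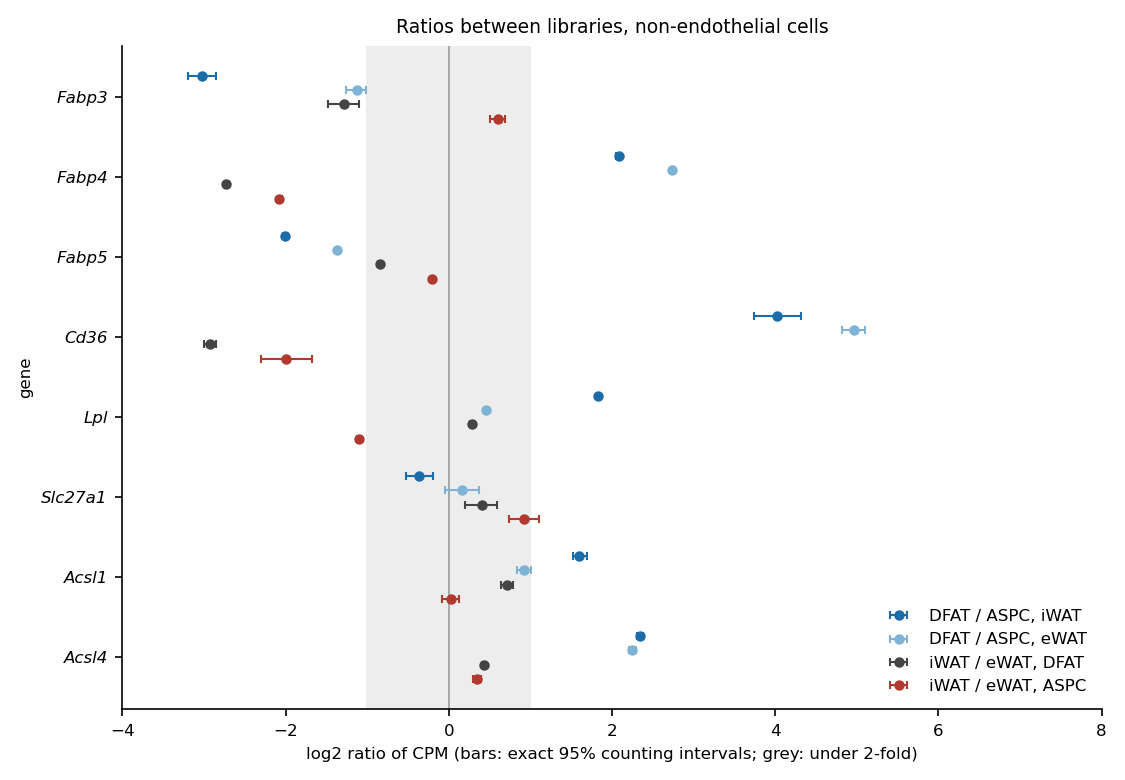
Log2 ratio of CPM for the 8 genes between libraries in non-endothelial cells, with exact 95% counting intervals; blue points compare DFAT cells with ASPCs in iWAT (dark) and eWAT (light), and the grey and red points compare iWAT with eWAT in DFAT cells and in ASPCs. The grey band marks ratios under 2-fold; Cd36 lies farthest to the right, at 4.02 and 4.96, and Fabp3 in iWAT farthest to the left, at -3.02.

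The promoters of the members that were higher in DFAT cells are shown for those with an entry in the RefSeq promoter table of build GRCm38.p6, which held 8 windows for 5 of the 8 members (Fabp3, Cd36, Acsl1, Slc27a1 and Acsl4) and none for Fabp4, Fabp5 and Lpl. Each is the 250 bases before an annotated transcript start, written 5′ to 3′ on the strand of the gene, and capitals mark CCAAT, the GC box letters GGGCGG or the half-site letters AGGTCA on either strand. The Cd36 window is chr5:17835897-17836146 (minus strand, 43.2% GC), inside the span of Cd36 and in no exon of the GENCODE annotation. The Acsl4 window is chrX:142390536-142390785 (minus strand, 70.8% GC), and that of the upstream Acsl1 start is chr8:46470787-46471036 (plus strand, 72.0% GC). Both lie in no annotated gene.
Cd36: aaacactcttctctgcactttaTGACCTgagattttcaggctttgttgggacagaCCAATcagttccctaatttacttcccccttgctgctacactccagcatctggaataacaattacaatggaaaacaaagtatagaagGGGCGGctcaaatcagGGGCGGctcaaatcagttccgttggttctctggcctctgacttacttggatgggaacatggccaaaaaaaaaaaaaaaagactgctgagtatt
Acsl4: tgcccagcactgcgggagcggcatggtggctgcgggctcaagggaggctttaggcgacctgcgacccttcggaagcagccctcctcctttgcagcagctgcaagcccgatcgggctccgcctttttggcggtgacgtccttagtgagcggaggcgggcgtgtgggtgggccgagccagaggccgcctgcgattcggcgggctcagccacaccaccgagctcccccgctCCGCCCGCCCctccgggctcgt
Acsl1: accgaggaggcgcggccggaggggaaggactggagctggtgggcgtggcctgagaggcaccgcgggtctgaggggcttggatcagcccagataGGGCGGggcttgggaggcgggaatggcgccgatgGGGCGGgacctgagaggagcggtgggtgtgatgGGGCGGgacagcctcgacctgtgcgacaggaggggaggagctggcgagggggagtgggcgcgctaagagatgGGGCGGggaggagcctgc

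In the Cd36 window CCAAT began 195 bases before the start, GGGCGG began at 109 and at 93 bases before it, and AGGTCA, the letters of a nuclear receptor half-site, lay on the other strand from 228 to 223 bases before it. The Acsl4 window held a pair of GGGCGG matches on the other strand that overlap each other, and the printed Acsl1 window held 4 GGGCGG matches. Over the 8 member windows CCAAT was found in 4, GGGCGG in 5, AGGTCA in 1, and TATAAA in 0, as was the repeat of AGGTCA with 1 base between its copies. Of 32851 windows of the same length, 33.8% held CCAAT, 32.7% GGGCGG, 14.0% AGGTCA, 12.4% TATAAA and 0.0335% the repeat, which contains AGGTCA. The median GC content of all windows was 52.4%, between that of Cd36 and those of the printed Acsl4 and Acsl1 windows. Acsl1 has another window that is not printed, chr8:46490716-46490965 inside the gene. Its GC content was 48.4%, below that median, and its CCAAT matches lay on the other strand.

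The depots differed in fewer members. Among DFAT cells, 2 of 6 members at 5 or more CPM differed by 2-fold between iWAT and eWAT, against 12.3% of 10368 genes, and both were lower in iWAT. These were Cd36, with a log2 ratio of iWAT to eWAT of -2.93 (-3.00 to -2.85), and Fabp4, at -2.73 (-2.74 to -2.72), or 7.60-fold and 6.64-fold higher in eWAT. Among ASPCs, 2 of 6 differed, against 7.01% of 10110 genes, and both were again lower in iWAT. They were Fabp4, at -2.08 (-2.10 to -2.05), and Lpl, at -1.10 (-1.12 to -1.08). The 2 comparisons use different libraries, and Fabp4 was the member found in both. Cd36 had a ratio of -1.99 (-2.30 to -1.68) in ASPCs, at levels too low to be counted. The median log2 ratio of the members was -0.29 in DFAT cells and -0.09 in ASPCs, beside 0.10 and 0.06 for all genes measured.

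Neither Lpl nor Fabp3 kept its depot order between DFAT cells and ASPCs. Lpl was slightly higher in iWAT than in eWAT DFAT cells (log2 0.28, 0.26 to 0.29), and lower in iWAT than in eWAT ASPCs. Fabp3 was lower in iWAT among DFAT cells (-1.29, -1.48 to -1.10), at levels too low to be counted, and higher in iWAT among ASPCs (0.60, 0.51 to 0.69). Fabp5 was 1.80-fold higher in eWAT than in iWAT DFAT cells (log2 -0.85, or -1.02 with equal weight per cell) and nearer between ASPCs (-0.21), and Acsl4 had log2 ratios of 0.43 and 0.34. Without cells of another marked class, Acsl1 was over 2-fold higher in iWAT than in eWAT DFAT cells (1.44 instead of 0.71), which made the count 3.

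A few cells with adipocyte transcripts carried a large part of several members in the DFAT libraries. In iWAT_DFAT, 33 non-endothelial cells (0.434%) with 3 or more adipocyte markers held 37.0% of the Fabp4 UMIs and 28.5% of the Cd36 UMIs. In eWAT_DFAT, 186 such cells (2.94%) held 39.4% of the Fabp4 UMIs, 33.4% of the Cd36 UMIs, 45.2% of the Acsl1 UMIs and 16.4% of the Lpl UMIs. The summed level of the 6 adipocyte markers in non-endothelial cells was 23.0 CPM in iWAT_DFAT and 83.9 CPM in eWAT_DFAT, against 0.575 CPM and 1.45 CPM in iWAT_ASPC and eWAT_ASPC. Of the 6 markers 5 had a UMI in each library, and Lep, a defining marker of mature adipocytes, was at 0. Adipoq stood at 1.22 CPM, 11.3 CPM, 0.101 CPM and 0.159 CPM in iWAT_DFAT, eWAT_DFAT, iWAT_ASPC and eWAT_ASPC.

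Fabp4, Cd36, Lpl and Acsl1 were higher with every added adipocyte marker in both DFAT libraries. Fabp4 was at 115, 503, 3466 and 26230 CPM in iWAT_DFAT cells with UMIs of 0, 1, 2 and 3 or more adipocyte markers (6587, 914, 73 and 33 cells), and at 849, 2706, 5956 and 31372 CPM in eWAT_DFAT (5082, 861, 187 and 186 cells). Cd36 went from 1.99 to 584 CPM in iWAT_DFAT and from 23.4 to 877 CPM in eWAT_DFAT over the same classes. The depot difference in Fabp4 was thus widest among cells without any adipocyte marker and small among cells with 3 or more. Lpl ran from 408 to 2912 CPM in iWAT_DFAT and from 263 to 2495 CPM in eWAT_DFAT, and Acsl1 from 20 to 370 CPM and from 7.26 to 241 CPM.

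Slc27a1 and Fabp5 were also highest in the class with 3 or more markers, without an even climb to it. Slc27a1 was at 2.54, 2.66, 7.37 and 42.8 CPM in iWAT_DFAT and at 1.89, 1.52, 0.997 and 13.8 CPM in eWAT_DFAT. Fabp5 was at 252, 179, 474 and 2206 CPM in iWAT_DFAT and 423, 399, 359 and 1974 CPM in eWAT_DFAT. Acsl4 and Fabp3 did not share this pattern: Acsl4 was lowest in cells with 3 or more markers, at 112 and 137 CPM, and Fabp3 had no UMI there in either library. These classes rest on measured transcripts of the same cells, so the levels are a description.

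**Figure D3:**
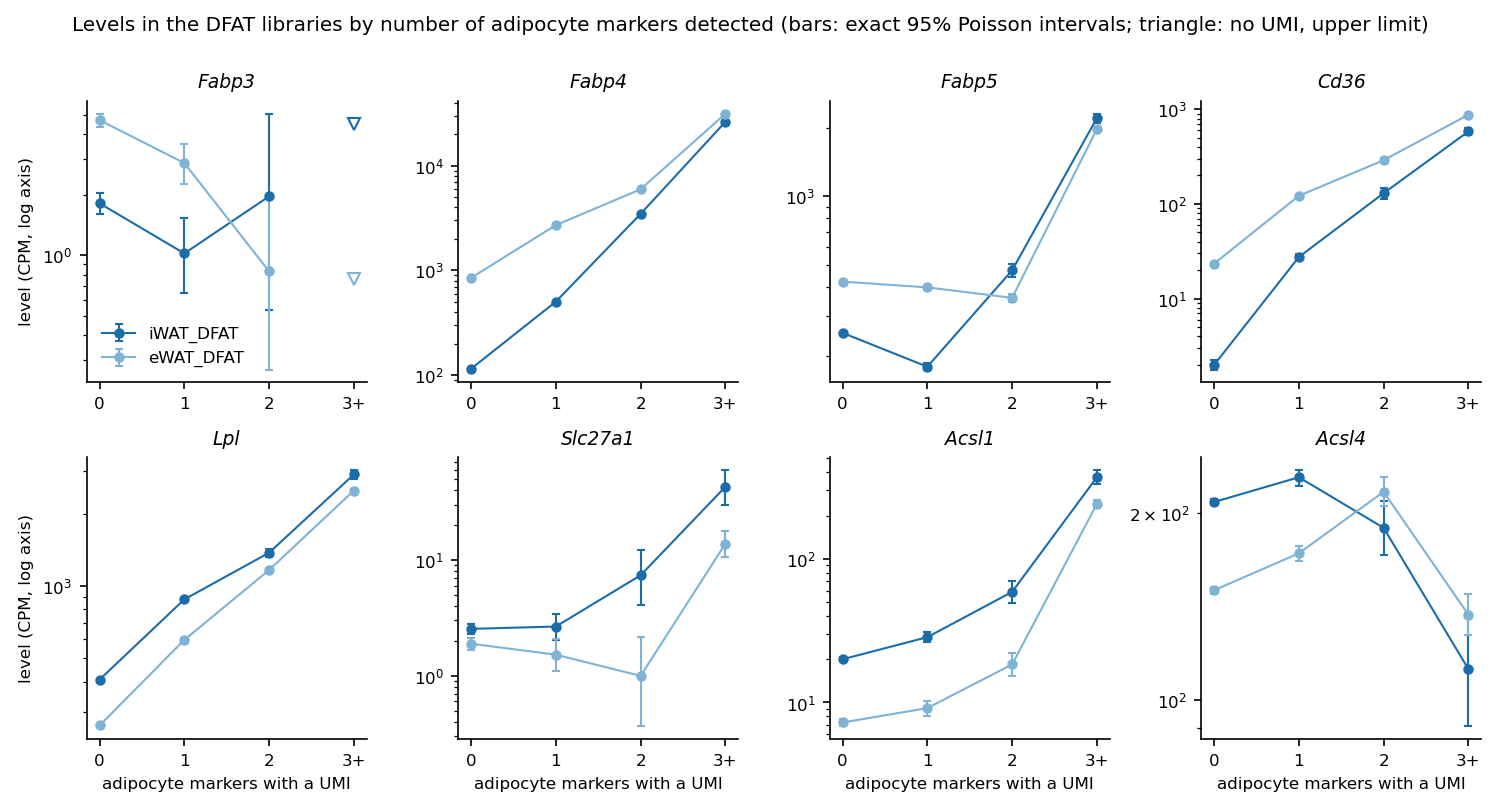
Level of the 8 genes (CPM, log axis) in non-endothelial cells of the iWAT_DFAT (dark) and eWAT_DFAT (light) libraries, by the number of 6 adipocyte markers with a UMI in the cell; bars are exact 95% Poisson intervals and triangles are upper limits without a UMI. Fabp4 climbs from 115 to 26230 CPM in iWAT_DFAT and from 849 to 31372 CPM in eWAT_DFAT, while Acsl4 ends lower than it began.

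The ratios between DFAT cells and ASPCs shrank but kept their direction for Cd36 and Fabp4 when only non-endothelial cells without a UMI of any adipocyte marker were used. The log2 ratio of Cd36 was then 2.25 in iWAT and 3.59 in eWAT, and that of Fabp4 was 0.86 in iWAT, under 2-fold, and 1.54 in eWAT. Cd36 in iWAT_DFAT was then at 1.99 CPM, too low to be counted, so the members at 2-fold numbered 5 in iWAT (3 higher) and 4 in eWAT. In the same cells Acsl1 was level in eWAT (0.01), and Lpl in eWAT was -0.12. Acsl4 was at 208 and 150 CPM in these cells of the DFAT libraries and at 41.3 and 32.5 CPM in those of the ASPC libraries, close to its values in all non-endothelial cells. The iWAT and eWAT DFAT libraries still stood apart for Cd36, at a log2 ratio of -3.55. Without the 1% of cells highest for each gene, and with all others kept, the members at 2-fold between DFAT cells and ASPCs numbered 6 in iWAT and 5 in eWAT. The share of all genes at 2-fold was counted for the main values only, not for these or other alternatives.

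Fabp4 was spread unevenly over cells. The median non-endothelial cell had 51.4 CPM of Fabp4 in iWAT_DFAT, 465 CPM in eWAT_DFAT, 0 CPM in iWAT_ASPC and 157 CPM in eWAT_ASPC. The 1% of cells with the most Fabp4 UMIs held 56.0%, 25.3%, 35.4% and 13.2% of the Fabp4 UMIs in the same order. Cells at 10000 CPM or more numbered 37, 258, 3 and 4, and of those in iWAT_DFAT and eWAT_DFAT 67.6% and 52.7% had 3 or more adipocyte markers. In eWAT_DFAT a further 27.6% of cells were between 1000 and 10000 CPM, of which 2.70% had 3 or more adipocyte markers, so that much of the Fabp4 of that library lay in cells with few of these transcripts.

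**Figure D4:**
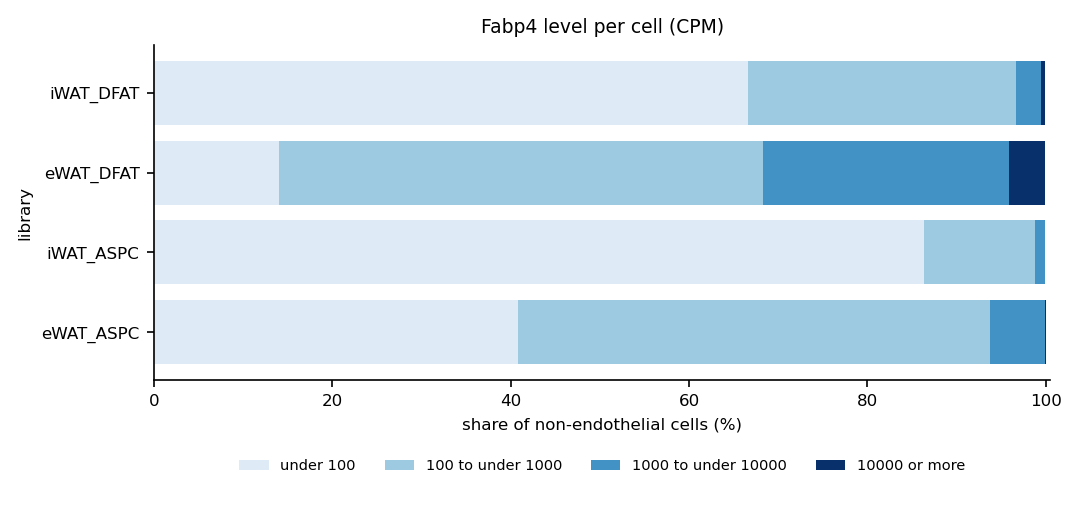
Share of non-endothelial cells (%) in 4 bands of Fabp4 level per cell (CPM), 1 bar per library. Cells under 100 CPM make up 66.6% of iWAT_DFAT, 14.0% of eWAT_DFAT, 86.3% of iWAT_ASPC and 40.8% of eWAT_ASPC.

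Detection of the genes was compared after each cell had been thinned to 5000 UMIs. Fabp4 had a UMI in 32.6% of non-endothelial cells of iWAT_DFAT, 78.1% of eWAT_DFAT, 14.8% of iWAT_ASPC and 52.9% of eWAT_ASPC, and in 64.7%, 95.8%, 34.7% and 77.2% at full depth. In glial-marked cells, taken as a type that should lack the gene, 5.88% of 17 cells (0.149% to 28.7%, exact binomial) in iWAT_DFAT and 1.5% of 133 cells (0.183% to 5.33%) in iWAT_ASPC had one, with median depths of 11369 and 11406 UMIs against 22123 and 25004 in the other cells. Cd36 had a UMI in 2.25%, 16.4%, 0.163% and 0.470% of non-endothelial cells in the 4 libraries (5.49%, 33.8%, 0.421% and 0.834% at full depth), and in 0 of 17 and 0 of 133 glial-marked cells, which allows up to 19.5% and 2.74%. The Cd36 shares in non-endothelial cells of iWAT_DFAT and iWAT_ASPC lie below those limits, so this comparison does not set them apart from background. eWAT_DFAT and eWAT_ASPC had too few glial-marked cells for such a background.

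In the DFAT libraries Cd36 was found mostly beside Fabp4. In thinned cells of iWAT_DFAT, 5.96% of the 2482 cells with Fabp4 also had Cd36, against 0.449% of the 5125 cells without Fabp4, and in eWAT_DFAT 20.3% of 4935 against 2.46% of 1381. In iWAT_ASPC these shares were 0.823% (9 cells) and 0.0478% (3 cells), and in eWAT_ASPC 0.544% (19 cells) and 0.386% (12 cells). Lpl was found in more of the cells with Fabp4 in all 4 libraries, at 82.1% against 72.5% in iWAT_DFAT and 69.9% against 53.7% in eWAT_DFAT, 50.8% against 41.4% in iWAT_ASPC and 69.4% against 59.9% in eWAT_ASPC. Acsl4 ran slightly the other way, at 55.2% against 58.8% in iWAT_DFAT and 47.5% against 49.5% in eWAT_DFAT.

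In free RNA, taken from droplets with 1 to 100 UMIs, Fabp4 and Cd36 had levels close to those in the cells of the library. Fabp4 was at 350, 2195, 81.2 and 307 CPM in iWAT_DFAT, eWAT_DFAT, iWAT_ASPC and eWAT_ASPC, and Cd36 at 10.2, 78.6, 0.560 and 2.11 CPM. Lpl in eWAT_ASPC was lower in free RNA, at 194 CPM (184 to 204) against 293 CPM in cells, and Slc27a1 in iWAT_ASPC was higher, at 5.46 CPM (3.88 to 7.47) against 3.60 CPM. The part of free RNA in the levels of cells was not tested.

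Fabp4 and Cd36 were higher in endothelial cells than in the other cells of the same culture. In each of the 4 libraries these genes, and no other member at 5 or more CPM, were 2-fold or more higher. This was 2 of 6 members in iWAT_DFAT against 13.9% of 10970 genes, 2 of 6 in eWAT_DFAT against 13.9% of 10689, 2 of 8 in iWAT_ASPC against 16.8% of 10838, and 2 of 7 in eWAT_ASPC against 13.7% of 10668. The median log2 ratio of the members was -0.44, -0.10, 0.28 and 0.27 in this order, beside 0.02, 0.10, 0.21 and 0.21 for all genes measured. The endothelial markers used to pick the cells summed to between 2978 and 3797 CPM in them and to between 7.40 and 13.1 CPM in other cells. Pdgfra, a stromal marker, was at 98.2, 24.9, 10.1 and 26.6 CPM in endothelial cells of iWAT_DFAT, eWAT_DFAT, iWAT_ASPC and eWAT_ASPC, against 246, 96.1, 84.9 and 83.3 CPM in the others, and 8, 25, 4 and 21 endothelial cells had 3 or more of the 5 stromal markers.

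Fabp4 in endothelial cells was at 3935 CPM (3764 to 4111) in iWAT_DFAT, 4325 CPM (4242 to 4408) in eWAT_DFAT, 1157 CPM (1094 to 1222) in iWAT_ASPC and 1481 CPM (1437 to 1527) in eWAT_ASPC. The endothelial cells of both DFAT libraries were above those of both ASPC libraries. Their medians were 1877, 2028, 569 and 686 CPM in the same order, and 1 of the 22 cells of iWAT_DFAT held 30.4% of its Fabp4 UMIs. The log2 ratio of endothelial to other cells was 3.63 (3.57 to 3.70), 1.04 (1.01 to 1.07), 3.95 (3.86 to 4.03) and 2.22 (2.18 to 2.27), smallest where the other cells had the most Fabp4. The ratio in eWAT_DFAT was under 2-fold with size factors (0.97), in thinned cells (0.93), with equal weight per cell (0.91) and with endothelial cells defined by 2 or more markers (0.86). It was larger without cells of another marked class (1.74) and against cells without any adipocyte marker UMI (2.35). In iWAT_DFAT these 2 settings gave 4.31 and 5.10 instead of 3.63, and the looser endothelial rule gave 1.53. In thinned cells Fabp4 had a UMI in 86.4%, 94.6%, 80.7% and 73.5% of endothelial cells, whose median depths of 18698, 11811, 15919 and 14924 UMIs were below those of the other cells. The adipocyte markers summed to 19.6, 124, 0 and 0.710 CPM in these endothelial cells, with 3, 5, 0 and 1 of the 6 markers found, and the 5 pericyte markers to 90.3, 38.5, 0 and 11.4 CPM. The part of either in these levels was not tested. Fabp4 was 15.4-fold and 4.67-fold higher in endothelial cells of iWAT_ASPC and eWAT_ASPC. With the looser endothelial rule the log2 ratios in these libraries were 2.72 and 1.11 instead of 3.95 and 2.22.

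Cd36 in endothelial cells was at 285 CPM (240 to 335) in iWAT_DFAT, 434 CPM (409 to 462) in eWAT_DFAT, 56.7 CPM (43.5 to 72.7) in iWAT_ASPC and 30.2 CPM (24.1 to 37.3) in eWAT_ASPC. The summed levels were higher in the DFAT cultures. In iWAT_DFAT the level came from few of the 22 cells, with a median of 11.6 CPM and 27.6% of the Cd36 UMIs in 1 cell, and the medians in eWAT_DFAT, iWAT_ASPC and eWAT_ASPC were 294, 0 and 0 CPM. The log2 ratio to other cells was 4.96 (4.71 to 5.21), 2.64 (2.55 to 2.74), 6.65 (6.18 to 7.11) and 3.75 (3.4 to 4.09). By this ratio Cd36 was 290th, 493rd, 153rd and 329th of the genes measured in its library and Fabp4 412th, 1405th, 375th and 579th. Without cells of another marked class the Cd36 ratio was 8.35 in iWAT_ASPC and 7.06 in eWAT_ASPC. Against cells without any adipocyte marker UMI it was 7.16 in iWAT_DFAT and 4.22 in eWAT_DFAT. With endothelial cells defined by 2 or more markers it was 3.03, 2.03, 5.29 and 2.87 in iWAT_DFAT, eWAT_DFAT, iWAT_ASPC and eWAT_ASPC. A UMI of Cd36 was found in 45.5%, 65.5%, 19.3% and 9.52% of thinned endothelial cells (50%, 82.4%, 26.3% and 23.8% at full depth).

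Lpl was lower in endothelial cells in every library. It was at 153 CPM (121 to 191), 191 CPM (174 to 209), 24.7 CPM (16.3 to 35.9) and 81.6 CPM (71.4 to 92.9), with log2 ratios to other cells of -1.67 (-2.01 to -1.35), -1.08 (-1.21 to -0.94), -2.47 (-3.07 to -1.93) and -1.85 (-2.04 to -1.66). With 2 or more endothelial markers as the rule, the ratio in eWAT_DFAT was 0.06 and those in iWAT_DFAT, iWAT_ASPC and eWAT_ASPC were -0.78, -0.31 and -0.66. In eWAT_DFAT it was also under 2-fold with no upper gene limit (-0.95), without cells of another marked class (-0.86) and against cells without any adipocyte marker UMI (-0.47), and in eWAT_ASPC it was -3.27 with doublets removed and -3.79 for endothelial cells without a Pdgfra UMI. Gpihbp1, the endothelial protein that holds LPL on the capillary surface, showed the reverse, with 428 CPM (373 to 489), 205 CPM (187 to 224), 23.8 CPM (15.5 to 34.8) and 49.3 CPM (41.5 to 58.2) in endothelial cells and 6, 7, 0 and 2 UMIs in all other cells of iWAT_DFAT, eWAT_DFAT, iWAT_ASPC and eWAT_ASPC. The lipase and its anchor were thus highest in different cells of the same cultures.

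The summed level of Fabp5 was slightly higher in endothelial cells of the DFAT cultures and lower in those of the ASPC cultures. It was at 302 CPM (257 to 354), 625 CPM (594 to 657), 484 CPM (443 to 527) and 602 CPM (574 to 631) in endothelial cells, which spans a narrower range than the 254 to 1182 CPM of the other cells. The log2 ratio was 0.25 (0.01 to 0.48) and 0.45 (0.37 to 0.52) in iWAT_DFAT and eWAT_DFAT, and -1.08 (-1.21 to -0.96) and -0.97 (-1.04 to -0.90) in iWAT_ASPC and eWAT_ASPC. With endothelial cells defined by 2 or more markers the ratio in iWAT_ASPC was -0.53, and that in eWAT_ASPC was between -1.16 and -1.0 under 10 alternatives. In eWAT_DFAT the median endothelial cell (329 CPM) was level with the median other cell (326 CPM), and 73.0% against 74.3% of thinned cells had a UMI.

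Acsl4 differed by less than 2-fold between endothelial and all other cells of the ASPC cultures. It was at 96.2 CPM (71.2 to 127), 99.5 CPM (87.3 to 113), 42.1 CPM (30.8 to 56.1) and 39.4 CPM (32.4 to 47.4) in endothelial cells, so that the DFAT cultures were higher than the ASPC cultures in this cell type as well. Its log2 ratio to other cells was -1.13 in iWAT_DFAT (-0.49 in thinned cells) and -0.64 in eWAT_DFAT, and 0.02 and 0.27 in the ASPC libraries. Acsl1 in endothelial cells rested on 5 to 29 UMIs and Slc27a1 on 1 to 13 UMIs, and the interval of the ratio held 0 in 2 of 4 libraries for Acsl1 and in 3 of 4 for Slc27a1. The Acsl1 ratio was -1.23 (-2.85 to -0.00) in iWAT_DFAT, from 5 UMIs, and -0.77 in eWAT_DFAT. In eWAT_DFAT it was 0.07 without cells of another marked class and 0.19 against cells without any adipocyte marker UMI. Fabp3 had 0 UMIs in endothelial cells of iWAT_DFAT and eWAT_DFAT, which allows up to 7.24 and 1.53 CPM, and 1 and 4 UMIs in those of iWAT_ASPC and eWAT_ASPC, at log2 ratios of -3.92 (-9.23 to -1.44) and -2.69 (-4.56 to -1.33). Members 2-fold lower in endothelial cells numbered 3 of 6, 1 of 6, 3 of 8 and 2 of 7 in the 4 libraries, beside 12.7%, 9.65%, 9.72% and 9.03% of all genes. With endothelial cells defined by 2 or more markers these counts were 0 in all 4 libraries, and the Fabp3 ratios in iWAT_ASPC and eWAT_ASPC were -0.09 and -0.64. With no upper gene limit these Fabp3 ratios were -1.78 and -1.74, and with free RNA subtracted at 5% that of iWAT_ASPC was -7.0.

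**Figure D5:**
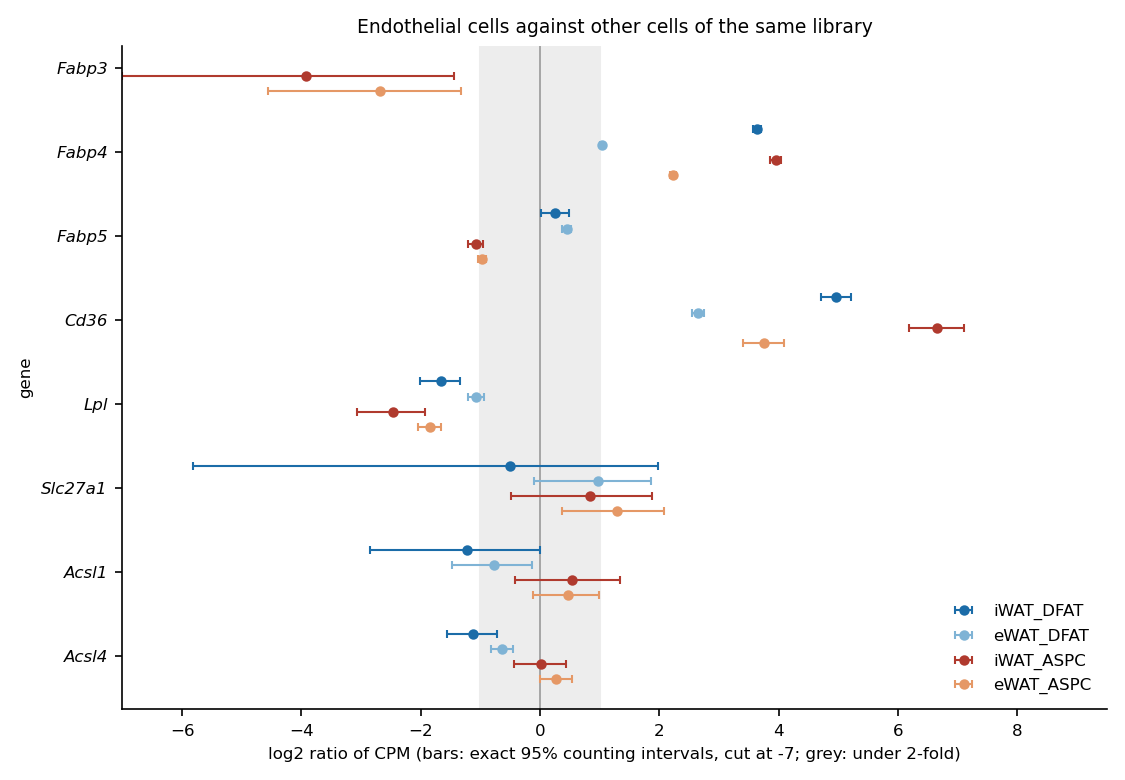
Log2 ratio of CPM in endothelial over other cells of the same library for the 8 genes, 1 colour per library, with exact 95% counting intervals that are cut at the left edge; the grey band marks ratios under 2-fold. Cd36 (2.64 to 6.65) and Fabp4 (1.04 to 3.95) lie to the right in all 4 libraries and Lpl (-2.47 to -1.08) to the left; Fabp3 is shown for the 2 ASPC libraries, where it had a UMI.

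Small groups of other cells had their own patterns. In the 25 immune-marked cells of eWAT_ASPC, with a UMI in 3 or more of Ptprc, Tyrobp, Fcer1g, Cd68 and C1qa, Cd36 was at 728 CPM and held 84.6% of the Cd36 UMIs of the non-endothelial cells of that library, with Lpl at 963 CPM and Fabp5 at 1531 CPM. Cells of eWAT_ASPC with none of the other types' marker sets had 0.226 CPM of Cd36, and those of iWAT_ASPC 0.174 CPM. Without the marked classes the log2 ratio of Cd36 between DFAT cells and ASPCs was 7.69 in eWAT and 5.22 in iWAT, and that between iWAT and eWAT ASPCs was -0.38 instead of -1.99. The 5 immune markers summed to 10.8 CPM in eWAT_ASPC against 2.02 to 2.83 CPM in the other libraries. All marked classes were taken out together, so the part of the immune-marked cells alone in these ratios was not tested.

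In the 490 mesothelial-marked non-endothelial cells of eWAT_ASPC, Fabp3 was at 27.2 CPM and Acsl4 at 80.5 CPM, above their levels of 7.93 and 29.2 CPM in unmarked cells, and Cd36 had no UMI. These cells held 19.1% of the Fabp3 UMIs of the library. The 58 mesothelial-marked cells of eWAT_DFAT likewise had Fabp3 at 23.4 CPM and Acsl4 at 237 CPM, against 4.14 and 156 CPM in unmarked cells. Glial-marked cells had Fabp4 at 8.41 CPM in iWAT_DFAT and 43.2 CPM in iWAT_ASPC, against 198 and 64.9 CPM in unmarked cells. The level in iWAT_ASPC came from 86 UMIs in 6 of the 133 glial-marked cells. Glial-marked cells of both libraries had no Cd36 UMI, and Fabp5 was at 551 and 853 CPM, against 245 and 1025 CPM in unmarked cells. The 28 pericyte-marked cells of eWAT_DFAT had Fabp4 at 12317 CPM and Cd36 at 533 CPM, and the 16 of them without a UMI of any adipocyte marker had 5966 CPM and 255 CPM.

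Fabp4, Lpl and Acsl4 were lower in proliferating cells of all 4 libraries. Cd36 was lower in those of iWAT_DFAT, eWAT_DFAT and iWAT_ASPC, and Slc27a1 in those of iWAT_DFAT, iWAT_ASPC and eWAT_ASPC. Among cells with none of the other types' marker sets, those with 3 or more of Mki67, Top2a, Cdk1, Ccna2 and Birc5 had less Fabp4 than the rest, at log2 ratios of -0.67 (-0.70 to -0.64) in iWAT_DFAT, -0.71 (-0.72 to -0.70) in eWAT_DFAT, -0.19 (-0.24 to -0.14) in iWAT_ASPC and -0.42 (-0.45 to -0.40) in eWAT_ASPC. Cd36 was at -1.30 (-1.48 to -1.12) and -0.94 (-1.0 to -0.88) in the DFAT libraries, -1.41 (-2.64 to -0.29) in iWAT_ASPC and -0.39 (-1.44 to 0.59) in eWAT_ASPC. Lpl was at -0.50 (-0.52 to -0.48), -0.58 (-0.60 to -0.55), -0.15 (-0.19 to -0.12) and -0.34 (-0.37 to -0.32) in iWAT_DFAT, eWAT_DFAT, iWAT_ASPC and eWAT_ASPC. Fabp5 went the other way, at 0.69 (0.67 to 0.72) and 0.24 (0.21 to 0.26) in iWAT_DFAT and eWAT_DFAT and 0.22 (0.21 to 0.23) in iWAT_ASPC, and was nearly level in eWAT_ASPC (0.03, 0.02 to 0.04). Acsl4 was at -0.38 (-0.40 to -0.35), -0.37 (-0.40 to -0.34), -0.10 (-0.16 to -0.04) and -0.22 (-0.30 to -0.14) in the 4 libraries. Slc27a1 was at -0.69, -0.28 (-0.61 to 0.05), -0.67 and -0.82, and Fabp3 at -0.08 (-0.41 to 0.25), 0.01 (-0.20 to 0.23), -0.65 and -0.37. Acsl1 had no common direction, at -0.52 (-0.61 to -0.43), -0.04 (-0.20 to 0.11), 0.32 (0.17 to 0.47) and -0.02 (-0.18 to 0.14) in the 4 libraries. Cycling cells made up 44.5%, 51.4%, 46.6% and 35.7% of the 4 libraries, and they held more UMIs per cell than the average of their library.

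The wider pathway was read from 57 other genes in 8 lists (binding proteins, transporters, synthetases, LPL partners, regulators, triglyceride synthesis, lipolysis and oxidation). Of the 36 at 5 or more CPM in iWAT, 8 were 2-fold higher in DFAT cells and 2 lower, beside 15.2% of all genes in either direction, with a median log2 ratio of 0.38. Of 35 in eWAT, 5 were higher and 3 lower, beside 13.5% of all genes, with a median of 0.20. Fabp7, the brain-type binding protein, was at 20.3 and 16.3 CPM in iWAT_DFAT and eWAT_DFAT against 5.99 and 0.596 CPM in the ASPC libraries, higher in DFAT cells as Fabp4 was. Pparg was at 44.7 CPM (43.8 to 45.7), 70.2 CPM (69.0 to 71.5), 17.6 CPM (17.0 to 18.2) and 7.91 CPM (7.52 to 8.32) in iWAT_DFAT, eWAT_DFAT, iWAT_ASPC and eWAT_ASPC. Its order over the DFAT libraries was that of Fabp4 and Cd36, but among ASPCs it was higher in iWAT, where Fabp4 was lower. Cd36 in ASPCs was too low to be counted. Its log2 ratio of iWAT to eWAT there was -1.99, and -0.38 without cells of another marked class.

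Among the LPL partners, Angptl4, which encodes an inhibitor of the lipase, was at 176, 180, 69.0 and 76.9 CPM, higher in both DFAT libraries. Angptl8, another inhibitor partner, and Vldlr, a lipoprotein receptor, were lower in eWAT DFAT cells than in eWAT ASPCs, at log2 ratios of -1.88 (-2.04 to -1.71) and -2.08 (-2.17 to -1.99). Of the triglyceride genes Dgat2, for the last step of synthesis, was 2-fold or more higher in DFAT cells of both depots, and of the lipolysis genes Lipe, for hormone-sensitive lipase, was higher (1.75 and 1.85) and Mgll, for monoglyceride lipase, lower. None of the 8 measured oxidation genes reached 2-fold in any of the 4 comparisons between libraries. Of all genes, 15.2% and 13.5% did between DFAT cells and ASPCs of iWAT and eWAT, and 12.3% and 7.01% between depots in DFAT cells and ASPCs. With 8 genes, a count of 0 is near those shares. Meox2, a homeobox gene of capillary endothelium, was at 18.9 CPM in the non-endothelial cells of iWAT_ASPC against 0.93 to 3.38 CPM in those of the other libraries. Between depots 4 of 35 pathway genes were 2-fold higher in iWAT DFAT cells (among them Slc27a3, Cav1 and Rxra) and 0 lower, near the 12.3% of all genes. In iWAT ASPCs 3 of 35 were higher (Meox2, Fabp7 and Pparg) and 1 (Angptl8) lower, beside 7.01% of all genes.

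In endothelial cells 7 of 39, 9 of 39, 8 of 36 and 7 of 36 pathway genes were 2-fold higher than in other cells of iWAT_DFAT, eWAT_DFAT, iWAT_ASPC and eWAT_ASPC, beside 13.9%, 13.9%, 16.8% and 13.7% of all genes, and 8, 3, 6 and 5 were lower, beside 12.7%, 9.65%, 9.72% and 9.03%. Mgll was among the higher genes in all 4 libraries, at log2 ratios of 4.91 (4.60 to 5.2), 5.09 (4.95 to 5.24), 2.68 (2.38 to 2.97) and 2.85 (2.70 to 3.00), as was Gpihbp1. Meox2 stood at 26.6 to 31.4 CPM in endothelial cells of the 4 libraries, and Tcf15, its partner in capillary endothelium, at 1.96, 11.2, 3.66 and 1.42 CPM from 1, 27, 4 and 4 UMIs. Pparg was at 62.8 CPM (43.0 to 88.7), 138 CPM (124 to 154), 53.0 CPM (40.3 to 68.6) and 28.4 CPM (22.5 to 35.3) in endothelial cells, above the other cells except in iWAT_DFAT, where the interval of the ratio held 0. Adipoq had 2, 37, 0 and 0 UMIs there.

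The genes most like each member over the 8 groups of cells (4 libraries, endothelial and other cells) were sought among 8183 genes by Pearson's correlation of log2(CPM + 1), as a description of points that share libraries. Cd36 was nearest to Fabp4 of all genes (r = 0.966), and Dusp6, for a phosphatase of ERK kinases, came next and was also second for Cd36, after Nap1l4 (r = 0.972). Fabp5 was nearest to Fhl2 (r = 0.965) and Emc7 (r = 0.963), and Fabp3 to Aga (r = 0.989) and Gsn (r = 0.967). Lpl was nearest to Xdh (r = 0.982) and Dnmt3l (r = 0.979), Acsl4 to Nav3 (r = 0.985) and Vstm2a (r = 0.983), Acsl1 to Clcn5 (r = 0.961) and Abhd2 (r = 0.947), and Slc27a1 to Zbtb2 (r = 0.954). In the endothelial groups Fabp3 rested on 0 to 4 UMIs and Slc27a1 on 1 to 13 UMIs, so their profiles there are near the floor.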

How the data were processed

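Droplet single-cell RNA sequencing of 4 libraries of cultured mouse cells was analysed, 1 per condition. The files hold UMI counts per gene and barcode as the authors deposited them, raw matrices that include empty droplets. The file headers name Cell Ranger 7.1.0 for iWAT_DFAT, eWAT_DFAT and eWAT_ASPC and version 4 for iWAT_ASPC, and the submitters' processing notes name Cell Ranger 7.0.0 and mm10. The Methods describe counting with introns, background removal with CellBender, DoubletFinder and Harmony, none of which was run here. The cell filter stated there starts at 500 UMIs and leaves 7796, 6988, 7843 and 7353 barcodes in iWAT_DFAT, eWAT_DFAT, iWAT_ASPC and eWAT_ASPC. The minimum here was 5000 UMIs, which leaves 7629, 6464, 7424 and 6745.

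UMIs were summed over cells and scaled to 1000000 (CPM). Ratios were counted from 2-fold where the higher group reached 5 CPM. Doublets were not removed in the values reported. Cell classes needed a UMI in 3 or more markers of a list, and classes under 10 cells got no level. Gene positions are from GENCODE M21 (GRCm38, the sequence of mm10) and promoters from RefSeq. Whether introns were counted in iWAT_ASPC is not in its header. When genes were split by gene span into 4 equal groups, the median log2 ratio of DFAT cells to ASPCs of iWAT was -0.06 in the shortest and 0.27 in the longest. For iWAT to eWAT DFAT cells, from the same software version, it was -0.04 and 0.24. For DFAT cells to ASPCs of eWAT, also from the same version, it was -0.01 and 0.14. For iWAT to eWAT ASPCs, from different versions, it was -0.00 and 0.12. The part of the software version in the ratios was not tested.

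The 8 members, the marker lists and the pathway lists were chosen with earlier results of these data known. All members are named. Pathway genes are named where they passed 2-fold at 5 or more CPM, at most the 5 largest per comparison, and Pparg, Gpihbp1, Angptl4, Meox2, Tcf15 and Adipoq are named always. Mgll in the library comparisons and Dgat2 in eWAT lie outside this rule and were named after their values were seen. Up to 2 genes most like each member are named too. Some genes that this rule would name are not reported here. Intervals were checked on simulated Poisson counts without spread between cells or cultures, so the check does not cover such spread. Alternatives changed 1 choice at a time: the UMI, gene and mitochondrial limits, Scrublet doublet removal, subtraction of free RNA, size factors, equal weight per cell, removal of marked classes or of the highest 1% of cells, the endothelial rule and thinning. The tools were scipy 1.17.1 for intervals, scanpy 1.11.5 for Scrublet, matplotlib 3.10.9 for figures, and numpy 2.4.6 with pandas 2.3.3 under Python 3.11.15.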

Additional observations from a re-analysis of the deposited data

Results flagged for a closer look

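With 1 library per condition, the differences below were not tested. They are given because the groups moved in opposite directions under the same contrast.

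Fabp3 was lower in iWAT than in eWAT DFAT cells (log2 -1.29) and higher in iWAT than in eWAT ASPCs (0.60), a difference of -1.89 between the 2 log2 ratios. In DFAT cells Fabp3 was under 5 CPM in both depots. Lpl was higher in iWAT among DFAT cells (0.28) and lower in iWAT among ASPCs (-1.10), a difference of 1.38.

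The summed level of Fabp5 was slightly higher in endothelial than in other cells of both DFAT libraries (0.25 in iWAT_DFAT and 0.45 in eWAT_DFAT). It was lower in those of both ASPC libraries (-1.08 in iWAT_ASPC and -0.97 in eWAT_ASPC). In eWAT_DFAT the median endothelial and other cells were level, at 329 and 326 CPM. In iWAT_DFAT the interval of the ratio was 0.01 to 0.48, from 154 UMIs in 22 endothelial cells. The log2 ratio in iWAT_DFAT was greater by 1.33 than in iWAT_ASPC and by 1.22 than in eWAT_ASPC, and that in eWAT_DFAT by 1.53 and 1.42.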

How the results depend on the processing

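Of the 16 library ratios counted at 2-fold, all 206 alternative values that gave a ratio had the same direction and 202 were still counted. Of the 17 endothelial ratios at 2-fold in either direction, 246 of 247 had the same direction and 229 were still counted. In eWAT_DFAT the count of members 2-fold higher in endothelial cells was 1 instead of 2 with endothelial cells defined by 2 or more of 5 markers, where Fabp4 was at a log2 ratio of 0.86, and 1 with size factors by the median of ratios, where it was at 0.97. The looser endothelial rule also turned Lpl in eWAT_DFAT from -1.08 to 0.06, and in iWAT_DFAT took Fabp4 from 3.63 to 1.53 and Cd36 from 4.96 to 3.03. Of 441 alternative endothelial values 60 moved by over 1.5 times, and of 413 between libraries 16. The cause was not tested. Without cells of another marked class, Fabp4 in eWAT was at 2.02 between DFAT cells and ASPCs and Acsl1 at 0.13. Without the 1% of cells highest for the gene, Fabp4 in iWAT was at 1.47. The use of cells without any adipocyte marker UMI was chosen after seeing the data, and took Fabp3 in eWAT to -0.97. Size factors moved ratios by 0.07 to 0.08 between libraries and by 0.01 to 0.18 between endothelial and other cells. Leaving out a replicate was not possible with 1 library per condition. No paired analysis was possible because each condition has 1 library and the labels give no replicate numbers. Depth limits Fabp3, Slc27a1 and Acsl1 in the 22 to 148 endothelial cells of a library.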
